A study of Mus musculus with 2 samples.

Results

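Mesenteric fibroblasts rich in Pi16, Igfbp5 and Dmkn transcripts are described here. They are the barcodes of a single-cell matrix that passed a fibroblast filter and held at least 5 unique molecular identifiers (UMIs, each a captured transcript molecule) of those 3 genes in sum. The fibroblast filter asked for at least 200 genes, at most 10% mitochondrial UMIs and at least 10 UMIs over Dcn, Col1a1, Col1a2 and Col3a1. It also asked for 0 UMIs of the leukocyte gene Ptprc, and at most 1 UMI each over the mesothelial genes Msln and Upk3b and over the endothelial genes Cdh5 and Cldn5. Of 3204 barcodes, 989 passed as fibroblasts and 187 met the rule, 99 of 460 in mouse 1 and 88 of 529 in mouse 2. These 187 are called the chosen fibroblasts, and the remaining 802 (361 and 441) the other fibroblasts.

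The cells came from the whole mesentery, the membrane that carries vessels, lymphatics and fat to the gut. It was taken from 2 male C57BL/6N mice of wild-type genotype and digested with Liberase DH, with no treatment. The sources used here give no age at harvest. Each mouse gave 1 library of the Chromium 3′ chemistry, version 2, and both mice form a single group, so the comparison made is between 2 populations within each mouse. Pairs of values are given throughout as mouse 1 and then mouse 2, and levels are CPM, the UMIs of a gene per 1000000 UMIs summed over a population.

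Pi16 encodes a secreted peptidase inhibitor and marks fibroblasts of the vessel adventitia and of the connective sheets of many organs. In fat depots such cells carry Dpp4, Cd55 and other surface proteins and are regarded as early progenitors of preadipocytes, fibroblasts already turned towards fat storage. Igfbp5 is a secreted binding protein of insulin-like growth factors. Dmkn (dermokine), Krtdap (keratinocyte differentiation-associated protein) and Sbsn (suprabasin) are secreted proteins best known from the upper layers of the epidermis, where their neighbouring genes are active together.

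The neighbouring genes were followed first, since Dmkn helped to choose the barcodes and Krtdap and Sbsn did not. By the GENCODE M21 annotation of GRCm38 (mm10), all 3 lie on the plus strand of chromosome 7. Sbsn (ENSMUSG00000046056) spans chr7:30751471-30756134, Dmkn (ENSMUSG00000060962) chr7:30763756-30781063 and Krtdap (ENSMUSG00000074199) chr7:30787896-30791097. The stretch from the start of Sbsn to the end of Krtdap is 39627 bp long, with gaps of 7621 and 6832 bp, and the matrix holds no other gene within it. Pi16 (ENSMUSG00000024011) is on chromosome 17 from 29317680 to 29330593 and Igfbp5 (ENSMUSG00000026185) on chromosome 1 from 72857932 to 72874884.

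Because these 3 neighbours are high in the same barcodes, their start regions are printed here, from 149 bases before the RefSeq start site to its first base (RefSeq, GRCm38.p6, plus strand, 150 bases each). Capitals mark the letters TGANTCA, the core bound by AP-1 factors such as Fos and Jun, searched on both strands, on which it reads the same. Dmkn has starts far apart, and its upstream and its downstream start are both shown.
Sbsn, chr7:30751322-30751471: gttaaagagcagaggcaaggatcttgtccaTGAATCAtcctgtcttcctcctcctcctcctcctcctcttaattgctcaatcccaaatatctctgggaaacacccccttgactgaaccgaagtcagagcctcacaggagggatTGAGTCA
Dmkn upstream start, chr7:30763607-30763756: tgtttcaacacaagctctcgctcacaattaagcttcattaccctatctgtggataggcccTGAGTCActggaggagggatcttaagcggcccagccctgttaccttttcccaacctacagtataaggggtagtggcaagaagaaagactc
Dmkn downstream start, chr7:30776256-30776405: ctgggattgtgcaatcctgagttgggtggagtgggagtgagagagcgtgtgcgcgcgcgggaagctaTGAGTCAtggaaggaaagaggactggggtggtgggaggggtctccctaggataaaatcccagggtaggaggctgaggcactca
Krtdap, chr7:30787756-30787905: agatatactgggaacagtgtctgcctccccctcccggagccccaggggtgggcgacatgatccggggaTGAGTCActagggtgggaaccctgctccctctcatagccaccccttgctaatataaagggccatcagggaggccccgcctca
The Sbsn stretch held the letters at 119 and at 6 bases before the start, the Dmkn stretches at 89 and at 82, and the Krtdap stretch at 81. Among 32851 promoter stretches of this length, 4.31% held the letters. The promoters of Pi16 and Igfbp5, 300 bases each around the RefSeq start, held none. The Pi16 stretch, chr17:29318632-29318931, lies downstream of the GENCODE start at 29317680, so sequence before that start was not covered. The letters TATAAA and GGGCGG were searched as well, in 300 bases around each start. TATAAA was found in Krtdap alone, 30 bases before the start, and GGGCGG in none of these promoters. Among 32851 promoters of that length, 13.6% held TATAAA and 35.7% GGGCGG. Counts from the 3′ end of transcripts do not show which Dmkn start was used, and a match of letters is a description of the sequence only.

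The genes of the rule are given as a description, since they set which barcodes were chosen. Pi16 stood at 2529 and 2316 CPM in the chosen and 96.4 and 85.4 CPM in the other fibroblasts. Igfbp5 was at 1818 and 2293 CPM and 20.7 and 24.9 CPM, and Dmkn at 642 and 537 CPM and 9.56 and 10.6 CPM. The label under which this population was proposed, Pi16 Igfbp5 progenitor-like fibroblasts, also names Krtdap and Sbsn, taken from earlier results of these data. Krtdap was at 425 and 337 CPM in the chosen fibroblasts and 24.7 and 11.3 CPM in the others. Sbsn was at 711 and 729.7 CPM and 45.4 and 37.8 CPM. In both mice each of the 5 markers was higher in the chosen fibroblasts, and the fitted log2 fold changes of the pair outside the rule were 4.36 (SE 0.20) for Krtdap and 4.06 (SE 0.16) for Sbsn.

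**Figure D1:**
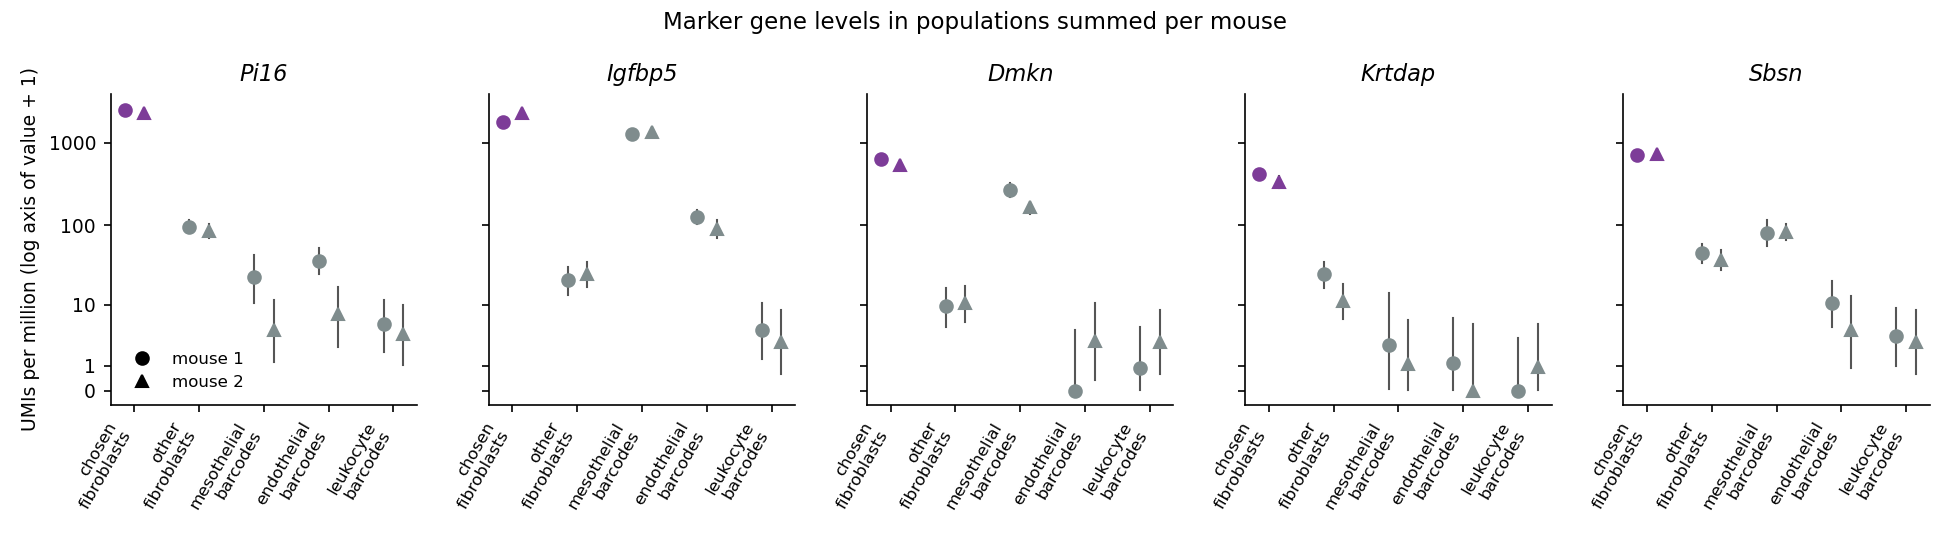
Levels of the 5 marker genes in CPM (log axis of the value + 1) for each mouse (circles mouse 1, triangles mouse 2) in the chosen fibroblasts, the other fibroblasts and mesothelial, endothelial and leukocyte barcodes; lines are exact 95% Poisson intervals, which cover counting error only. All 5 genes are highest in the chosen fibroblasts, Igfbp5 and Dmkn next in mesothelial barcodes, at 1284 and 1351 and 267 and 165 CPM, while Pi16 and Krtdap are low there.

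Outside the fibroblasts the markers parted. Mesothelial barcodes, which line the peritoneal surface (57 and 145 barcodes with at least 5 UMIs of Msln and Upk3b), held Igfbp5 at 1284 and 1351 CPM and Dmkn at 267 and 165 CPM. Sbsn stood at 81.5 and 82.9 CPM there, Krtdap at 2.55 and 1.12 CPM and Pi16 at 22.9 and 4.48 CPM. Endothelial barcodes (236 and 168) had Igfbp5 at 126 and 90.3 CPM and Krtdap at 1.19 and 0 CPM. Leukocyte barcodes (374 and 347), which should lack all 5, had Pi16 at 5.38 and 3.88 CPM, Igfbp5 at 4.48 and 2.91 CPM and Krtdap at 0 and 0.971 CPM. Igfbp5 and Dmkn were thus shared with mesothelium, whereas Krtdap above 100 CPM was seen only in the chosen fibroblasts among these 5 populations.

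The share of fibroblasts that met the rule was 21.5% in mouse 1 (exact Clopper-Pearson 95% interval 17.9 to 25.6%) and 16.6% in mouse 2 (13.6 to 20.1%). The mean was 19.1% ± 3.46 (SD, n = 2). The intervals overlap, and a filter on UMIs of 3 genes reads depth as well as expression. The median chosen barcode had 4869 and 4737.5 UMIs (479702 and 394680 in all) with 1816 and 1800.5 genes. The median other fibroblast had 3422 and 2950 UMIs (1254816 and 1323599 in all) with 1431 and 1222 genes. With barcodes of 2000 to 8000 UMIs alone the share was 20.9%, and with the rule scaled to 10 UMIs per 10000 it was 21.4%. No barcode sequence was shared by both libraries.

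Pi16 was the rule gene detected most often. Of the 187 chosen fibroblasts, 180 had a Pi16 UMI (96.3%), 152 an Igfbp5 UMI (81.3%) and 105 a Dmkn UMI (56.1%). All 3 genes were detected in 92 barcodes, Pi16 with Igfbp5 in 53, Pi16 with Dmkn in 11 and Pi16 alone in 24. Of the 7 without Pi16, 5 had Igfbp5 alone and 2 had Igfbp5 with Dmkn. Outside the rule, Sbsn was detected in 133 chosen fibroblasts (71.1%) and Krtdap in 108 (57.8%). The sum of the 3 rule genes ranged from 5 to 125 UMIs with a median of 18, and 11 barcodes sat at 5, just inside, against 17 at 4, just outside. Just inside (3 and 8 barcodes) Pi16 was at 1082 and 821 CPM, Fbn1 at 1713 and 3119 CPM and Cd55 at 90.2 and 821 CPM. Just outside (9 and 8 barcodes) Pi16 was at 664 and 805 CPM, Fbn1 at 2360.5 and 2179 CPM and Cd55 at 443 and 758 CPM. Pi16, a rule gene, was lower just outside in both mice, while the values of Fbn1 and Cd55 overlapped. Krtdap was at 0 and 82.1 CPM just inside and higher just outside, at 320 and 94.7 CPM. Sbsn differed in direction between the mice, at 0 and 369 CPM just inside and 197 and 94.7 CPM just outside. None of these values of Krtdap and Sbsn rests on more than 13 UMIs.

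Since deeper barcodes show more genes, shares were also taken after thinning each barcode to 1000 UMIs, which left out 0 chosen, 3 and 16 other fibroblasts and 4 and 13 leukocyte barcodes. Leukocyte barcodes, which should lack these genes, had median depths of 2248 and 2189 UMIs before thinning. Krtdap was then detected in 37.4% and 23.9% of chosen and 2.23% and 1.41% of other fibroblasts, and in 0 of the 370 and 334 leukocyte barcodes, which allows up to 0.811% and 0.898%. Sbsn was detected in 42.4% and 40.9% of chosen and 3.91% and 3.76% of other fibroblasts, with 0.270% and 0.299% in leukocytes. Cd55 reached 50.5% and 71.6% against 9.50% and 8.24%, and Fbn1 86.9% and 86.4% against 46.1% and 44%. In leukocytes Cd55 was at 4.05% and 2.99% and Fbn1 at 0.270% and 0.299%. Without thinning, Krtdap was detected in 64.6% and 50.0% of chosen and 4.16% and 2.95% of other fibroblasts, Sbsn in 71.7% and 70.5% and 10.2% and 9.07%.

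The rule genes were also read where another rule gene did the choosing. With fibroblasts chosen on at least 3 Pi16 UMIs alone, Igfbp5 was at 1596 and 2083 CPM against 81.1 and 81.9 CPM (log2 fold change 4.44, SE 0.13) and Dmkn at 586 and 505 CPM against 21.9 and 19 CPM (log2 fold change 4.68, SE 0.19). Chosen instead on at least 3 UMIs of Igfbp5 and Dmkn, Pi16 was at 2683 and 2304 CPM against 247 and 197 CPM (log2 fold change 3.44, SE 0.12). Each rule gene was therefore higher in both mice in barcodes that the other rule genes had picked. These folds are a description, since the rule rests on genes already seen to go together in these cells.

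Gene by gene, the chosen and the other fibroblasts were compared on UMIs summed per mouse and population, 4 sums in all. The test was edgeR's quasi-likelihood F-test with mouse as a block, and calls were made at a Benjamini-Hochberg adjusted p of 0.05 over all genes fitted. Of 7124 genes outside the rule, 588 were higher in the chosen fibroblasts (8.25%) and 723 lower (10.1%), 1311 in all (18.4%), and 1305 of the 1311 moved the same way in both mice. Over all genes tested the median log2 fold change was 0.0049. With 1 residual degree of freedom the fit drew the spread of the population difference between mice from all genes together. A gene whose difference varied more between mice than most therefore has too small a p. DESeq2's Wald test called 284 genes (120 higher and 164 lower), all of them among the 1311.

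The largest increases were taken among called genes that moved alike in both mice, with a mean log2 CPM of at least 5. Leaving aside Krtdap and Sbsn, they were 10 genes with varied roles. Some genes below a mean log2 CPM of 5, Dact2 among them, had larger fitted differences. Tnfrsf11b, which encodes osteoprotegerin, a secreted decoy receptor for the cytokine RANKL, was at 104 and 93.7 CPM against 9.56 and 7.56 CPM (log2 fold change 3.46, SE 0.33, adjusted p = 1.6e-23). Cd55, a surface protein that shields cells from complement, stood at 898 and 1267 CPM against 135 and 139.8 CPM (log2 fold change 2.91, SE 0.13, adjusted p = 2.73e-110). Sema3c, a secreted semaphorin, was at 471 and 562 CPM against 89.3 and 91.4 CPM (log2 fold change 2.46, SE 0.15), and Ptgs1, the constitutive cyclooxygenase, at 158 and 231 CPM against 23.9 and 31.7 CPM (log2 fold change 2.74, SE 0.21). In each of the 4 both chosen sums lay above both other sums.

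Efhd1, a mitochondrial calcium-binding protein, was at 371 and 357 CPM against 43.8 and 32.5 CPM (log2 fold change 3.20, SE 0.18). Tmem100, a transmembrane protein, was at 286 and 443 CPM against 33.5 and 52.9 CPM (log2 fold change 3.02, SE 0.18), and Limch1, an activator of non-muscle myosin, at 156 and 205 CPM against 27.9 and 21.2 CPM (log2 fold change 2.82, SE 0.22). Chst1, a sulfotransferase of keratan sulfate, stood at 66.7 and 114 CPM against 12 and 14.4 CPM (log2 fold change 2.70, SE 0.31), and Tmem158 at 150.1 and 139 CPM against 16.7 and 12.1 CPM (log2 fold change 3.27, SE 0.26). Gm15675, a gene model on chromosome 1 from 130429781 to 130437191, next to Cd55 (130439027 to 130462744), was at 64.6 and 111 CPM against 11.2 and 6.04 CPM (log2 fold change 3.27, SE 0.34). Whether transcripts of Cd55 were counted for Gm15675 was not tested. The largest adjusted p among these 10 genes was 4.55e-16, for Chst1.

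By the same choice and minimum level, the largest decreases were genes at low levels in the chosen fibroblasts. Inmt, an N-methyltransferase of small amines, was at 29.2 and 22.8 CPM against 608 and 485 CPM (log2 fold change −4.43, SE 0.21, adjusted p = 1.62e-89). Iigp1, an interferon-inducible GTPase, was at 10.4 and 12.7 CPM against 230.3 and 258 CPM (log2 fold change −4.44, SE 0.29, adjusted p = 3e-49), and Crispld2, a secreted glycoprotein, at 22.9 and 12.7 CPM against 315 and 354 CPM (log2 fold change −4.23, SE 0.25, adjusted p = 1.55e-60). Fam198b stood at 8.34 and 2.53 CPM against 115 and 125 CPM (log2 fold change −4.40, SE 0.39). In each of the 4 both chosen sums lay far below both other sums.

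Hsd11b1, which regenerates active glucocorticoid inside cells, was at 2.08 and 15.2 CPM against 190.5 and 96.7 CPM (log2 fold change −4.21, SE 0.35), with the chosen fibroblasts of mouse 2 nearer to the others than those of mouse 1. The remaining 7 had 1 to 3 UMIs in all chosen fibroblasts, so their ratios of pooled counts are given with counting intervals. Mmp3 (stromelysin-1) had 1 UMI against 175 and was 59.4 times lower (counting interval 10.5 to 2358). Tgfbi, a matrix protein induced by TGF-beta, had 1 against 110 and was 37.3 times lower (counting interval 6.56 to 1487). G0s2, an inhibitor of the lipase of fat droplets, had 3 against 238 and was 26.9 times lower (counting interval 9.10 to 131), with all 3 UMIs in mouse 2.

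Nmb (neuromedin B) had 2 UMIs against 158 and was 26.8 times lower (counting interval 7.30 to 223). Serpina3n, a protease inhibitor, had 3 against 194 and was 21.9 times lower (counting interval 7.40 to 107). Fbln7 had 1 against 120 and was 40.7 times lower (counting interval 7.17 to 1621), and Mcoln2, a lysosomal cation channel, had 1 against 102 and was 34.6 times lower (counting interval 6.07 to 1379.8). The counting intervals are wide and cover counting error only. The 7 were picked as large called decreases, so intervals on the lower side follow from that choice. DESeq2's Wald test did not call G0s2 or Hsd11b1.

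**Figure D2:**
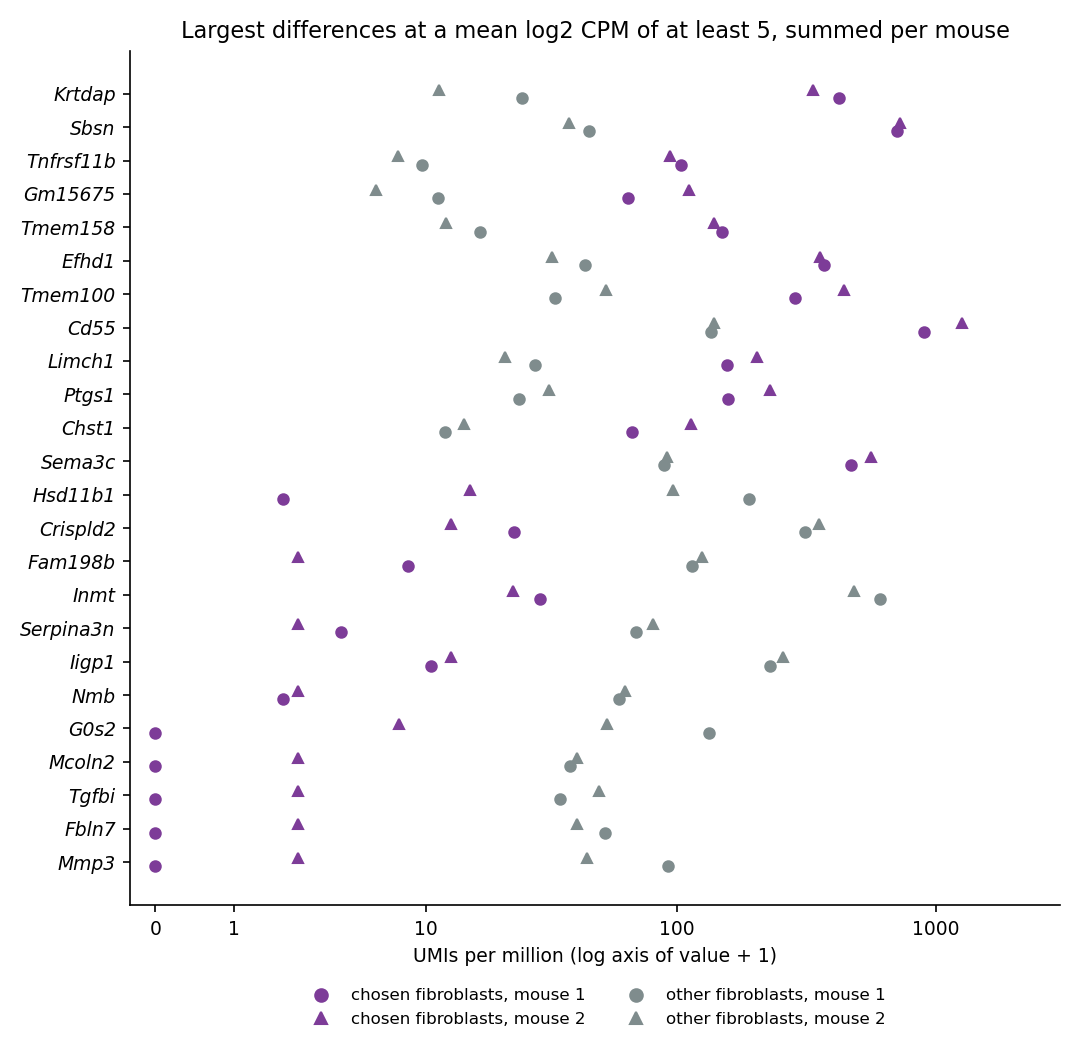
CPM (log axis of the value + 1) of the 12 genes with the largest increase and the 12 with the largest decrease among called genes with a mean log2 CPM of at least 5, each as 4 points, for chosen (purple) and other (grey) fibroblasts of mouse 1 (circles) and mouse 2 (triangles). Only genes that moved the same way in both mice were taken. In every row the pair of purple points lies on 1 side of the pair of grey points. Mmp3, Fbln7, Tgfbi, Mcoln2 and G0s2 were at 0 in the chosen fibroblasts of mouse 1.

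Genes reported for Dpp4-positive and Pi16-positive adventitial progenitors in other tissues were mostly higher. Of the 30 tested, 24 were higher, 2 lower and 4 not called, with a median log2 fold change of 1.45 against 0.0049 over all genes tested. Over all genes tested 8.25% were higher and 10.1% lower, and the counts of this and the following lists are read against these shares. This list, like the others, was drawn up with earlier results of these data known. Dpp4, a surface peptidase, was at 81.3 and 104 CPM against 27.9 and 12.8 CPM (log2 fold change 2.12, SE 0.28, adjusted p = 1.28e-12). Fbn1, a fibrillin of microfibrils, was at 2625 and 3225 CPM against 834 and 826 CPM (log2 fold change 1.76, SE 0.10). Mfap5, a partner of fibrillin, was at 2856 and 2797 CPM against 995 and 751 CPM (log2 fold change 1.65, SE 0.10).

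Further members encode surface proteins. Cd34 was at 836 and 958 CPM against 381 and 410.2 CPM (log2 fold change 1.13, SE 0.11), Cd248 (endosialin) at 1028 and 960.3 CPM against 351 and 355 CPM (log2 fold change 1.44, SE 0.11) and Thy1 at 206 and 289 CPM against 70.1 and 92.9 CPM (log2 fold change 1.55, SE 0.17). Ly6c1 was at 796 and 702 CPM against 249 and 229.7 CPM (log2 fold change 1.59, SE 0.12) and Ly6a (Sca-1) at 1714 and 1538 CPM against 1059 and 821 CPM (log2 fold change 0.75, SE 0.10). The chosen fibroblasts exceeded the others in both mice for all 5. Fn1 (fibronectin) stood at 2539 and 2364 CPM against 1187 and 964 CPM (log2 fold change 1.14, SE 0.10).

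Anxa3, Ackr3, Pcolce2, Emilin2, Uchl1, Stmn4, Opcml and Tek were also higher, with log2 fold changes from 0.66 (Pcolce2, an enhancer of collagen processing) to 1.93 (Uchl1, a deubiquitinase). The lower pair was Col15a1, a basement membrane collagen, at 33.4 and 15.2 CPM against 235 and 224 CPM (log2 fold change −3.24, SE 0.25, adjusted p = 1.14e-36), and Ly6e at 273 and 243 CPM against 406 and 381 CPM (log2 fold change −0.66, SE 0.14). Dpt, Il13ra1, Procr and Smpd3 were not called, and Dpt stood at 1678 and 1875 CPM against 1779.5 and 1653 CPM (adjusted p = 0.989). With DESeq2's Wald test 21 were higher and 1 lower. Opcml, Tek, Wnt2 and Ly6e were among those not called by it.

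Preadipocyte genes went the other way. Of 19 tested, 15 were lower, 1 was higher and 3 were not called, and the median log2 fold change was −1.67. Lpl, the lipase that frees fatty acids from lipoproteins, was at 217 and 190.0 CPM against 597 and 594 CPM (log2 fold change −1.60, SE 0.14, adjusted p = 4.35e-28). Fabp4, a fatty acid carrier, was at 39.6 and 43.1 CPM against 93.2 and 143 CPM (log2 fold change −1.54, SE 0.24), and Icam1, an adhesion molecule that marks committed preadipocytes, at 58.4 and 43.1 CPM against 234 and 216 CPM (log2 fold change −2.19, SE 0.21). Apoe stood at 18.8 and 22.8 CPM against 194 and 272 CPM (log2 fold change −3.52, SE 0.26), and the collagen IV chains Col4a1 and Col4a2 at 277 and 312 CPM against 912 and 899 CPM and 113 and 149 CPM against 384 and 417 CPM.

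The exception was Zfp423, a transcription factor of preadipocytes, at 27.1 and 17.7 CPM against 2.39 and 9.82 CPM (log2 fold change 1.85, SE 0.52, adjusted p = 0.00369, 20 UMIs in all chosen fibroblasts). Cebpa, Apod and Ebf2 were not called, and Pparg, with 2 UMIs in the chosen and 26 in the other fibroblasts, was too low to test. By DESeq2's Wald test 9 of the 19 were lower and none was higher, and Zfp423, Gpc3, Cebpb, Sparcl1 and G0s2 were among those without a call. With a rule of at least 10 UMIs Zfp423 was not called either.

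The stroma that restrains fat formation carries its own markers, among them F3 (tissue factor). All 8 tested genes of that list were lower (median log2 fold change −1.47). Mgp, a matrix protein that blocks calcification, was at 93.8 and 127 CPM against 1088 and 895 CPM (log2 fold change −3.23, SE 0.15, adjusted p = 7.78e-98). Gdf10, a TGF-beta family ligand, was at 41.7 and 20.3 CPM against 285 and 301 CPM (log2 fold change −3.24, SE 0.23) and Fmo2, a flavin monooxygenase, at 14.6 and 7.60 CPM against 186 and 211 CPM (log2 fold change −4.14, SE 0.30). F3 was at 91.7 and 152 CPM against 193 and 165 CPM (log2 fold change −0.63, SE 0.18). DESeq2's Wald test called 4 of the 8, F3 not among them. Bgn had the smallest difference (log2 fold change −0.30, SE 0.11, adjusted p = 0.0362), lost its call under 8 alternatives and changed sign under another.

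**Figure D3:**
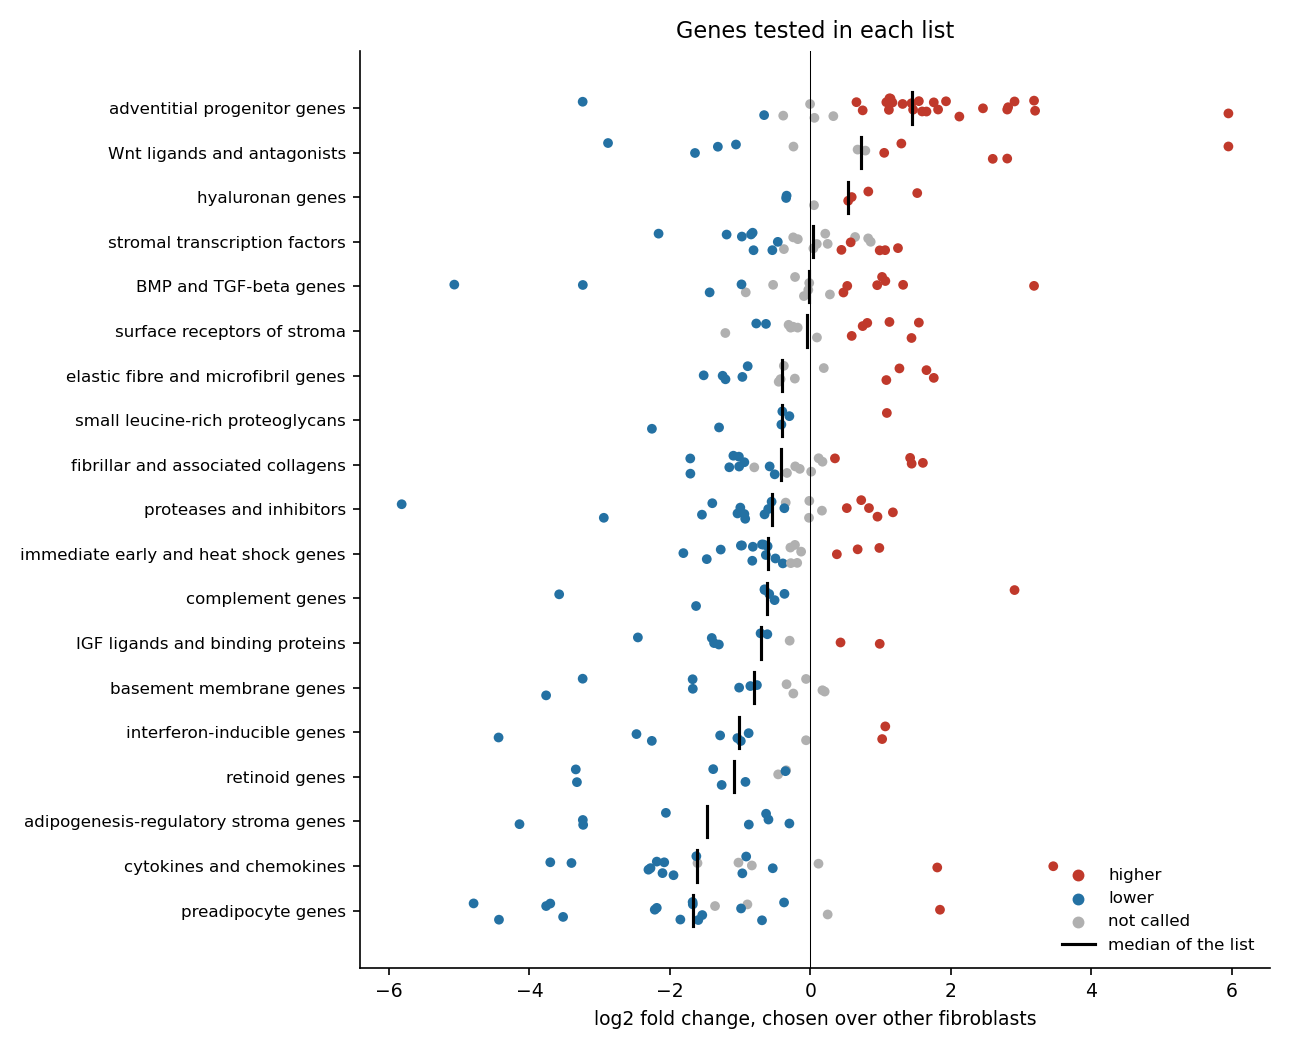
Log2 fold change of each tested gene, chosen over other fibroblasts, in 19 gene lists ordered by their median (black bar); red points were higher, blue lower and grey not called at an adjusted p of 0.05 by edgeR. Adventitial progenitor genes have the highest median (1.45) and preadipocyte genes the lowest (−1.67).

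Of 20 fibrillar and associated collagen genes, 4 were higher, 9 lower and 7 not called (median −0.42). The higher ones were Col14a1 and Col12a1, which sit on the surface of collagen fibrils, Col8a1 and Loxl1. Col14a1 was at 1661 and 1462 CPM against 622 and 505 CPM (log2 fold change 1.42, SE 0.11, adjusted p = 5.96e-39) and Col12a1 at 142 and 117 CPM against 52.6 and 29.5 CPM (log2 fold change 1.60, SE 0.22). Col6a1 and Col6a2, chains of the beaded collagen VI, were lower, at 438 and 489 CPM against 869 and 842 CPM and 371 and 314 CPM against 746 and 669 CPM. Lox, which cross-links collagen and elastin, was lower at 58.4 and 53.2 CPM against 186 and 167 CPM (log2 fold change −1.71, SE 0.21). Loxl1 lost its call under 8 alternatives. DESeq2's Wald test called 3 of the list higher and 6 lower. The collagen filter genes, part of the rule, are outside this list and given as a description. Col1a1 was at 1065 and 1330 CPM against 1322 and 1711 CPM. Col1a2 was at 1985 and 1974 CPM against 2193 and 2342 CPM. Col3a1 stood at 2051 and 2062 CPM against 3201 and 3708 CPM, and Dcn at 5618 and 4548 CPM against 9919 and 7858 CPM.

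Among 14 elastic fibre and microfibril genes 4 were higher, 5 lower and 5 not called (median −0.40). Fbn1 and Mfap5 were joined by Efemp1, an extracellular glycoprotein, at 936 and 785 CPM against 381 and 309 CPM (log2 fold change 1.27, SE 0.12), and Emilin2 at 365 and 359.8 CPM against 171 and 159 CPM (log2 fold change 1.08, SE 0.14). Eln, elastin itself, was lower at 70.9 and 203 CPM against 226 and 266 CPM (log2 fold change −0.97, SE 0.17), with the chosen fibroblasts of mouse 2 close to the others. Fbln1 was lower at 117 and 208 CPM against 462 and 416 CPM (log2 fold change −1.52, SE 0.15), while Fbln2 was not called. The 4 higher calls and 1 of the 5 lower ones were also made by DESeq2's Wald test.

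Of 6 small leucine-rich proteoglycans, which coat collagen fibrils, 5 were lower and 1 was higher (median −0.41). DESeq2's Wald test called 2 of the 5 lower ones, and the fit without the replicate block called 2 as well. Aspn was the higher one, at 489.9 and 329 CPM against 192 and 178 CPM (log2 fold change 1.09, SE 0.14, adjusted p = 3.03e-13). Prelp was lower at 133 and 195 CPM against 391 and 379 CPM (log2 fold change −1.30, SE 0.15) and Podn at 14.6 and 27.9 CPM against 88.5 and 104 CPM (log2 fold change −2.26, SE 0.30). No basement membrane gene was higher: 7 of 12 were lower and 5 not called (median −0.81). Of these 7 calls 4 were made by DESeq2's Wald test. Nid2 (nidogen-2) was at 2.08 and 5.07 CPM against 43 and 51.4 CPM (log2 fold change −3.76, SE 0.56), whereas its paralogue Nid1 was at 913 and 973 CPM against 869 and 746 CPM and not called (adjusted p = 0.304).

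Of 7 hyaluronan genes 4 were higher, 2 lower and 1 not called (median 0.54). Has2, a hyaluronan synthase, was at 208 and 233 CPM against 80.5 and 67.2 CPM (log2 fold change 1.52, SE 0.18, adjusted p = 2.96e-16) and Has1 at 1024 and 778 CPM against 693 and 506 CPM (log2 fold change 0.54, SE 0.11). Vcan, a proteoglycan that binds hyaluronan, was at 279 and 304 CPM against 166 and 151 CPM (log2 fold change 0.83, SE 0.15). Ptx3 and Tnfaip6, which tie hyaluronan to other proteins, were the lower pair (−0.34 and −0.34). Only Has2 was called by DESeq2's Wald test.

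Proteases and their inhibitors were lower in 12 of 21, higher in 5 and not called in 4 (median −0.55). Adamts5, an aggrecan-cleaving protease, was higher at 811 and 851 CPM against 351 and 359 CPM (log2 fold change 1.18, SE 0.12, adjusted p = 4.99e-22), while its relative Adamts4 was lower at 52.1 and 20.3 CPM against 244 and 323 CPM (log2 fold change −2.94, SE 0.22). The metalloprotease inhibitors Timp2 and Timp3 were higher, at 2635 and 2359 CPM against 1481 and 1432 CPM (log2 fold change 0.73, SE 0.10) and 705 and 965 CPM against 417 and 479 CPM (log2 fold change 0.84, SE 0.11). Plat and Serpinb6a were the other 2 higher members, Plat not by DESeq2's Wald test. That test called 5 of the 12 lower ones. Cst3, a cathepsin inhibitor, was lower at 590.0 and 535 CPM against 1192 and 1037 CPM (log2 fold change −1.04, SE 0.11).

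Igfbp5 set aside as a rule gene, the insulin-like growth factor system was lower in 6 of 9 genes and higher in 2 (median −0.71). Igfbp6, a binding protein that prefers IGF2, was higher at 2996 and 2534 CPM against 1437 and 1250.4 CPM (log2 fold change 0.99, SE 0.10, adjusted p = 6.1e-23), with Htra3, a serine protease, at 959 and 983 CPM against 719.6 and 671 CPM (log2 fold change 0.43, SE 0.11). Igfbp7 was lower at 1203 and 1029 CPM against 3105 and 2597 CPM (log2 fold change −1.40, SE 0.10, adjusted p = 3.97e-42) and Igfbp4 at 725 and 676 CPM against 1022 and 1049 CPM (log2 fold change −0.61, SE 0.11). The ligand Igf1 was lower at 56.3 and 22.8 CPM against 98 and 96 CPM (log2 fold change −1.30, SE 0.25), and its receptor Igf1r was not called. Htra3, Igf1, Igf2r and Pappa were not called by DESeq2's Wald test.

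Among 12 Wnt ligands, receptors and antagonists, 5 were higher, 4 lower and 3 not called (median 0.73). Dact2, which binds the Wnt adaptor Dishevelled, was at 66.7 and 101 CPM against 1.59 and 0.756 CPM (log2 fold change 5.95, SE 0.50, adjusted p = 1.01e-30) and had 3 UMIs in all other fibroblasts against 72 in the chosen. Pooled counts gave a ratio of 70.8 (counting interval 23.3 to 351). Wnt2, a ligand, was at 16.7 and 35.5 CPM against 2.39 and 4.53 CPM (log2 fold change 2.80, SE 0.57) and Wnt11 at 54.2 and 53.2 CPM against 27.1 and 22.7 CPM (log2 fold change 1.05, SE 0.32). The secreted antagonists split, with Sfrp2 at 39.6 and 15.2 CPM against 3.19 and 5.29 CPM and Sfrp4 at 79.2 and 70.9 CPM against 29.5 and 29.5 CPM, both higher, and Sfrp1 lower at 29.2 and 27.9 CPM against 203 and 206 CPM (log2 fold change −2.88, SE 0.24, adjusted p = 9.08e-30). Rspo1, Rspo3 and Fzd4 were also lower. Of the 9 called, Dact2 and Sfrp1 were called by DESeq2's Wald test too.

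Genes of the BMP and TGF-beta families were higher in 7 of 18, lower in 4 and not called in 7 (median −0.02). The ligand Bmp7 was at 77.1 and 63.3 CPM against 5.58 and 9.07 CPM (log2 fold change 3.19, SE 0.37, adjusted p = 4.5e-16) and Bmp2 at 131 and 139 CPM against 43.8 and 61.2 CPM (log2 fold change 1.32, SE 0.21). Fstl1 and Nbl1, secreted modulators, were at 1962 and 2265 CPM against 974 and 1031 CPM and 1232 and 1128 CPM against 780.2 and 802 CPM, both higher. Bmp1, Tgfb2 and the receptor Tgfbr2 made up the rest of the higher ones. Id3, a transcriptional target of BMP signalling, was lower at 648 and 684 CPM against 1184 and 1359 CPM (log2 fold change −0.98, SE 0.11). With DESeq2's Wald test 3 were called higher and 3 lower.

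Cytokines and chemokines were lower in 12 of 18 and higher in 2, with 4 not called (median −1.61). Cxcl12, which retains leukocytes in tissue, was at 8.34 and 20.3 CPM against 145 and 138 CPM (log2 fold change −3.40, SE 0.31, adjusted p = 2.87e-26), and Cxcl14 at 14.6 and 2.53 CPM against 149 and 77.1 CPM (log2 fold change −3.70, SE 0.35). Ccl11 (eotaxin) was lower at 555 and 519 CPM against 1756 and 1442 CPM (log2 fold change −1.62, SE 0.11), Il6 at 208 and 98.8 CPM against 587 and 568 CPM (log2 fold change −1.95, SE 0.15) and Cxcl1 at 3279 and 2729 CPM against 5399 and 5493 CPM (log2 fold change −0.91, SE 0.09). The higher pair was Tnfrsf11b and Il33, an alarmin of barrier tissues, at 133 and 119 CPM against 31.9 and 37.8 CPM. Ccl2 was not called, at 2389 and 3005 CPM against 2515 and 2262 CPM (adjusted p = 0.460).

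Of 8 complement genes 7 were lower and only Cd55 was higher (median −0.62). C3, the central component, was at 1219.5 and 1267 CPM against 1749 and 2029 CPM (log2 fold change −0.65, SE 0.10, adjusted p = 2.1e-09) and Serping1, the inhibitor of C1, at 882 and 917 CPM against 1427 and 1300.2 CPM (log2 fold change −0.65, SE 0.10). With DESeq2's Wald test 2 of the 7 were lower, and C1ra and C4b were among those without a call. Retinoid genes were lower in 6 of 8 with none higher (median −1.09). Of these 6 calls 2 were made by DESeq2's Wald test and 4 without the replicate block. Aldh1a2, which makes retinoic acid, was at 4.17 and 12.7 CPM against 77.3 and 80.8 CPM (log2 fold change −3.32, SE 0.39, adjusted p = 2.07e-15).

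Surface receptors of stroma were higher in 6 of 14 and lower in 2 (median −0.04), against 8.25% higher and 10.1% lower over all genes tested. The higher ones were Cd34, Thy1, Ly6a, Cd248, Axl, a receptor tyrosine kinase, and Cd44, the hyaluronan receptor. Pdgfra, a receptor of platelet-derived growth factor that marks most fibroblasts, was lower at 156 and 159.6 CPM against 245 and 277 CPM (log2 fold change −0.77, SE 0.16, adjusted p = 2.77e-05), and Eng was lower too. DESeq2's Wald test called neither of that pair. Among the 6 not called were Cd81, Itgb1, Pdpn and Pdgfrb.

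Transcription factors of stroma were higher in 5 of 23, lower in 8 and not called in 10 (median 0.04), against the same 8.25% and 10.1%. Klf4 was at 3199.9 and 2721 CPM against 1698 and 1209.6 CPM (log2 fold change 0.99, SE 0.10, adjusted p = 3.52e-23) and Creb5 at 488 and 476 CPM against 216 and 229 CPM (log2 fold change 1.07, SE 0.13), with Ebf1, Osr2 and Prrx1 the other 3. Nfib was lower at 261 and 337 CPM against 485 and 518 CPM (log2 fold change −0.81, SE 0.13) and Tcf21, a factor of visceral mesenchyme, at 189.7 and 129 CPM against 259 and 292 CPM (log2 fold change −0.82, SE 0.16). Klf4 and Creb5 were the 2 higher ones under DESeq2's Wald test, which called 2 of the 8 lower ones.

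Immediate early and heat shock genes, which respond to tissue digestion among other stimuli, were lower in 13 of 21, higher in 3 and not called in 5 (median −0.61). Socs3 was at 504 and 362 CPM against 1398 and 1547 CPM (log2 fold change −1.81, SE 0.11, adjusted p = 1.52e-52) and Zfp36 at 876 and 818 CPM against 2261 and 2287 CPM (log2 fold change −1.47, SE 0.10). Fosb, Egr1 and Jund were lower by 0.66 to 0.83 on the log2 scale. Nr4a1 was higher at 1419.6 and 953 CPM against 583 and 563 CPM (log2 fold change 0.98, SE 0.11), with Hspb1 and Ier3. DESeq2's Wald test called 7 of the 13 lower ones and 1 of the 3 higher ones, neither Hspb1 nor Ier3. Ier3 also lost its call without the replicate block and within 2000 to 8000 UMIs. Of 10 interferon-inducible genes 7 were lower and 2 higher (median −1.01), and by DESeq2's Wald test 2 were lower and 1 higher. Irf7 and Ifi27l2a were the higher pair, Ifi27l2a at 1061 and 1315 CPM against 622 and 472 CPM (log2 fold change 1.07, SE 0.11), and Ifitm3 was lower at 871 and 719.6 CPM against 1883 and 1298 CPM (log2 fold change −1.04, SE 0.11). Of the cell cycle genes Pcna alone passed the filter on low counts and was not called (adjusted p = 0.914). Top2a, a topoisomerase of dividing cells, had 8 UMIs in the chosen fibroblasts, 7 of them in mouse 2, against 1 in the others, a ratio of 23.6 (counting interval 3.16 to 1046). Without the filter 8 cell cycle genes were tested and none was called, with 7 of the 8 in the higher direction (median 1.10).

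Levels of genes outside the rule were also read over the sum of the rule genes. Fibroblasts were binned by that sum at 0 (272 and 348 barcodes), 1 to 4 (89 and 93), 5 to 9 (27 and 23), 10 to 19 (24 and 29) and 20 or more (48 and 36). Krtdap went from 5.49 and 3.92 CPM at 0 through 75.5 and 36.4 CPM at 1 to 4, 250.5 and 219 CPM at 5 to 9 and 307 and 183 CPM at 10 to 19 to 568 and 484 CPM at 20 or more, so that mouse 2 was lower at 10 to 19 than at 5 to 9. Cd55 was at 78 and 72.5 CPM at 0, 287 and 367 CPM at 1 to 4 and 1034 and 1624 CPM at 20 or more, and Fbn1 in the same bins at 591 and 574 CPM, 1477 and 1676 CPM and 3019.5 and 3799 CPM. Barcodes with 1 to 4 UMIs, below the rule, thus lay between the bins at either end for all 3.

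Of the genes lower in the chosen fibroblasts, Igfbp7, Inmt, Mgp, Col15a1, Cxcl12 and Icam1 were read over the bins, and each was lowest at 20 or more in both mice. Igfbp7 went from 3396 and 2698 CPM at a sum of 0 through 2337 and 2258 CPM at 1 to 4 to 894 and 937 CPM at 20 or more, and Inmt from 726 and 544 CPM through 296 and 288 CPM to 12.4 and 0 CPM. Mgp was at 1091 and 859 CPM at a sum of 0, 1079.8 and 1018 CPM at 1 to 4, 234 and 329 CPM at 5 to 9 and 45.3 and 5.20 CPM at 20 or more. Col15a1 was at 274 and 249.7 CPM at a sum of 0 and had 0 UMIs in the 84 barcodes at 20 or more. The median depth rose over the same bins, from 3349 and 2957 UMIs at 0 to 5073 and 5273 UMIs at 20 or more, and its part in these levels was not tested beyond the fit within 2000 to 8000 UMIs. That fit called 1045 genes.

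**Figure D4:**
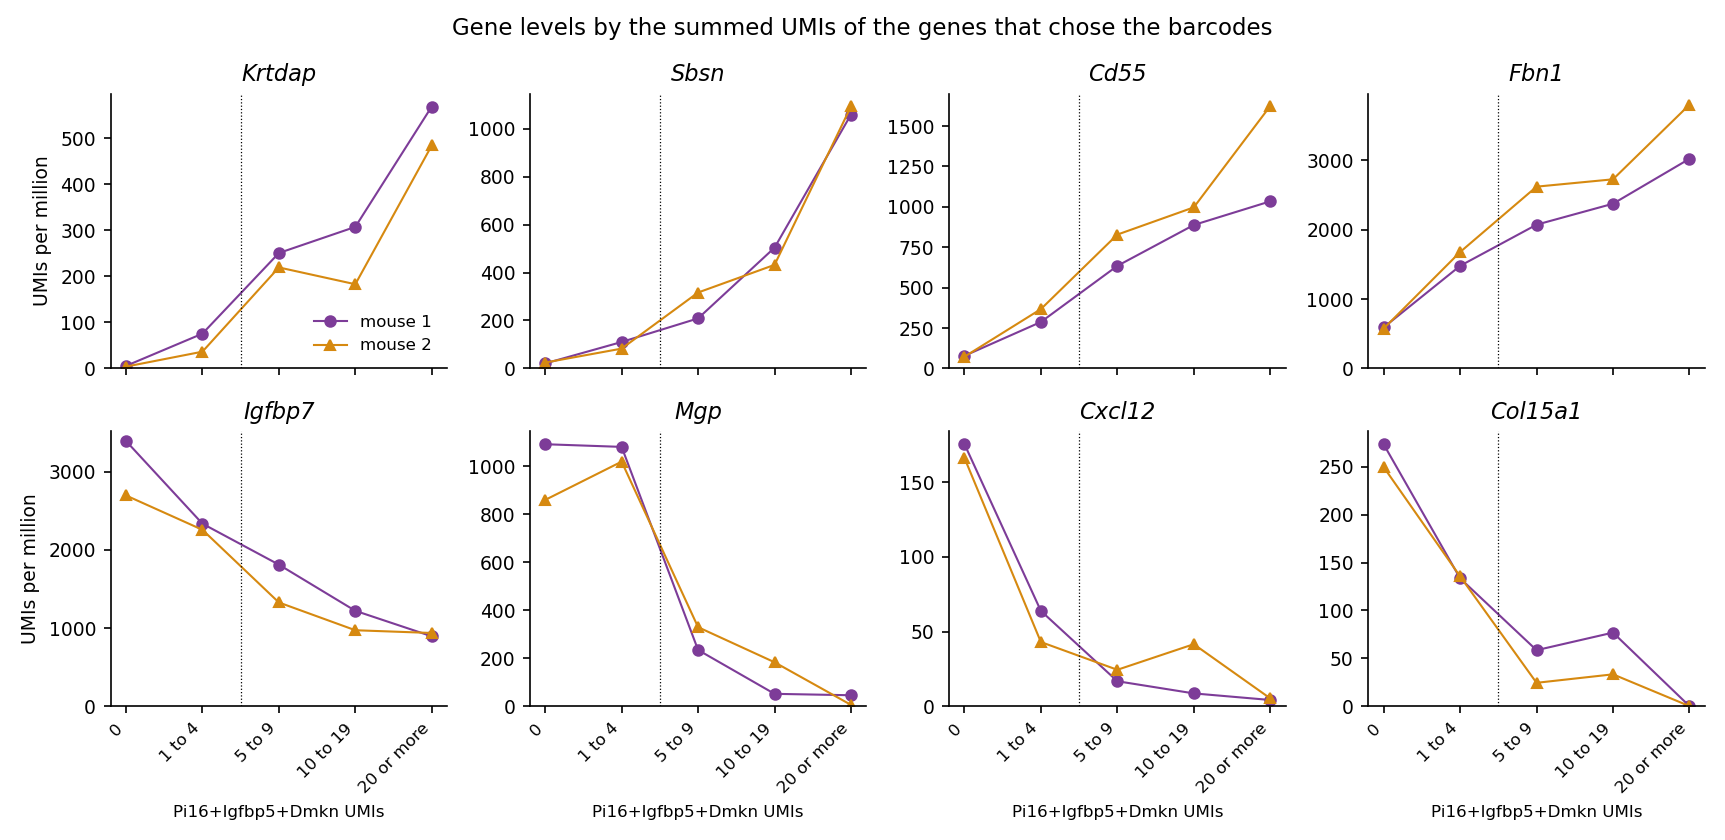
CPM of 8 genes in fibroblasts binned by their summed UMIs of Pi16, Igfbp5 and Dmkn, for mouse 1 (circles) and mouse 2 (triangles); the dotted line marks the rule. Krtdap, Sbsn, Cd55 and Fbn1 are highest at 20 or more UMIs, and Igfbp7, Mgp, Cxcl12 and Col15a1 are highest below the rule.

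The chosen fibroblasts differed among themselves. With a Dmkn UMI (59 and 46 barcodes), Sbsn was at 949.7 and 991 CPM and Krtdap at 533 and 493 CPM. Without it (40 and 42 barcodes), Sbsn was at 337 and 397 CPM and Krtdap at 257 and 138 CPM. Both neighbours of Dmkn were thus higher where Dmkn was detected, in both mice, with median depths of 4873 and 4781.5 UMIs against 4607 and 4434. Dact2, on chromosome 17 and no neighbour, was higher too, at 85.4 and 154 CPM with and 37.4 and 34.6 CPM without a Dmkn UMI. Pi16 was at 2808 and 2709 CPM with and 2091 and 1815 CPM without a Dmkn UMI. That difference was smaller as a ratio, though not in CPM, and Pi16 is part of the rule.

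Split by Igfbp5, the 80 and 72 chosen fibroblasts with a UMI had Dact2 at 79.5 and 115 CPM and Col15a1 at 18 and 6.24 CPM. The 19 and 16 without had Dact2 at 11.1 and 40.4 CPM (1 and 3 UMIs) and Col15a1 at 100.2 and 53.9 CPM. Cd55 was at 949 and 1389 CPM against 679 and 741 CPM, so members without Igfbp5 were still well above the 135 and 139.8 CPM of the other fibroblasts. Krtdap and Sbsn, which lie on another chromosome than Igfbp5, were also higher with an Igfbp5 UMI in both mice. Krtdap was at 487 and 359 CPM with and 156 and 243 CPM without it. Sbsn was at 823 and 811 CPM with and 223 and 377 CPM without it. Dpp4 showed no such order, at 84.6 and 99.8 CPM with and 66.8 and 121 CPM without Igfbp5. These splits are descriptions and carry no test.

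Dropping the barcodes that had a UMI of Dmkn, Krtdap or Sbsn from both populations left 16 and 18 chosen against 307 and 390 other fibroblasts. This setting was added after the data were seen. With these few, 110 of 5675 genes were called, 48 higher and 62 lower, and 105 of the 110 had been called in the same direction before. Among the adventitial progenitor genes 10 of 27 were higher and 1 lower, and among preadipocyte genes 5 of 17 were lower. Il33, Dpp4, Thy1 and Ly6a were no longer called. The median log2 fold change changed sign for the elastic fibre (0.46), insulin-like growth factor (0.08), Wnt (−0.79), surface receptor (0.16) and transcription factor (−0.12) lists.

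Markers of other cell types were read in the same sums. Of 17 measured keratinocyte genes, 12 were at 0 in the chosen fibroblasts of both mice, among them the defining Krt5, Krt14, Krt1, Lor and Trp63. The list summed to 85.5 and 50.7 CPM in the chosen and 53.4 and 39.3 CPM in the other fibroblasts, and Krt10, the 1 member tested, was not called (adjusted p = 0.959). The epidermal neighbours Dmkn, Krtdap and Sbsn were therefore seen in sums with no UMI of these defining genes. Mesothelial genes outside the filter summed to 6.25 and 38 CPM against 6201 and 6122 CPM in mesothelial barcodes.

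Blood endothelial genes summed to 152 and 198 CPM in the chosen and 86.1 and 100.5 CPM in the other fibroblasts, of which Tek was 146 and 169.8 and 70.1 and 69.5 CPM. Tek, the angiopoietin receptor, also stands in the progenitor list and was the 1 tested endothelial gene, higher at log2 fold change 1.12, SE 0.19. Pericyte and smooth muscle genes summed to 100.1 and 35.5 CPM and adipocyte genes to 6.25 and 17.7 CPM. Lymphatic endothelial genes summed to 2.08 and 0 CPM, Schwann cell genes to 8.34 and 2.53 CPM, T and innate lymphoid genes to 39.6 and 2.53 CPM and B cell genes to 4.17 and 0 CPM.

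The mice differed in myeloid transcripts. Macrophage and monocyte genes summed to 39.6 and 203 CPM in the chosen and 218 and 277 CPM in the other fibroblasts, and dendritic genes to 106 and 623 CPM and 360.2 and 314 CPM. Lyz2 was at 12.5 and 175 CPM, H2-Ab1 at 14.6 and 177 CPM and Cd74 at 50.0 and 367 CPM in the chosen fibroblasts. All 3 were higher in mouse 2 than in mouse 1, and 5 of 9 dendritic markers, among them Flt3, Xcr1 and Itgax, were at 0 in both mice. Lyz2 was called lower over both mice (log2 fold change −0.62, SE 0.20), and its log2 fold change was 0.21 in mouse 2. Of the 5 macrophage genes tested 4 were lower, and of the 4 dendritic genes Zbtb46 was higher and H2-Aa lower. DESeq2's Wald test called none of these 9 genes, and the part of myeloid transcripts in the differences between populations was not tested. Without doublets only 2 macrophage genes passed the filter on low counts, and 1 was lower. Lyz2 was then not called, at a log2 fold change of −0.075. H2-Ab1 was not called, with a log2 fold change of 0.59, and was called lower within 2000 to 8000 UMIs, at −1.96 (adjusted p = 0.000279). It was called higher without doublets (0.76), with fibroblasts chosen on Pi16 alone (0.65) and with those chosen on Igfbp5 and Dmkn alone (0.80). Its calls thus went both ways.

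**Figure D5:**
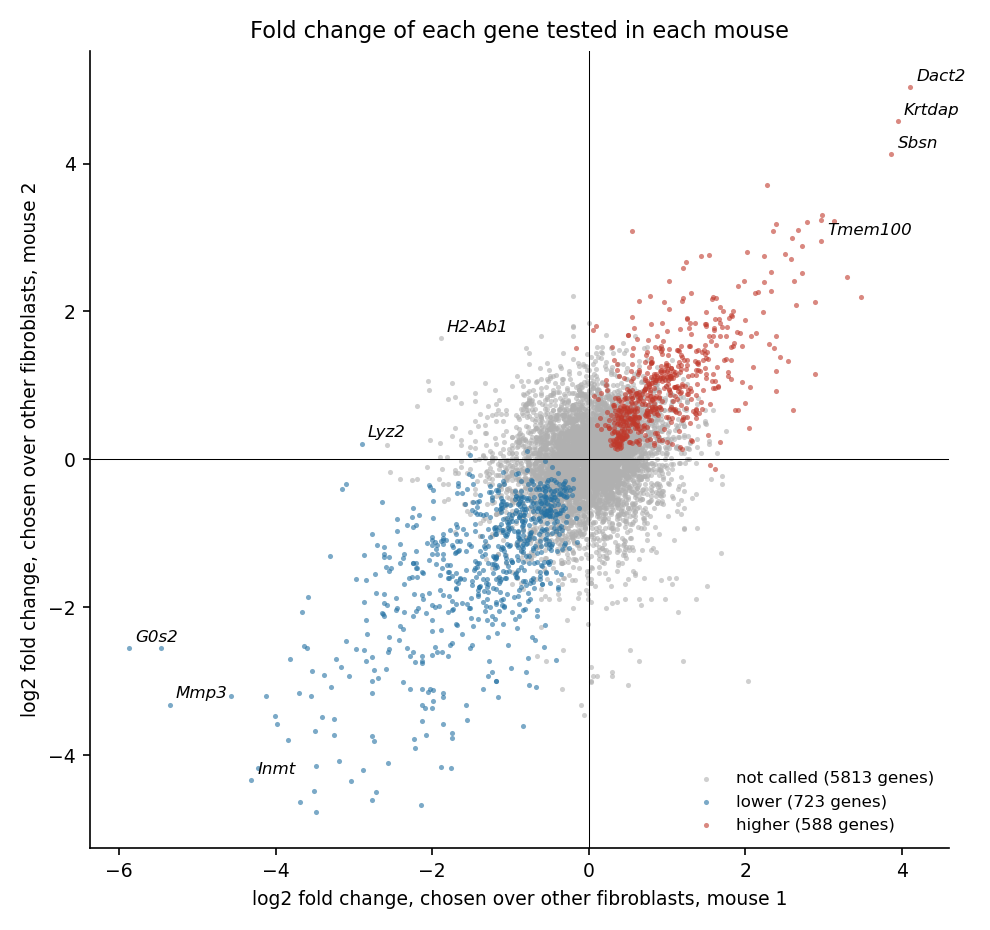
Log2 fold change, chosen over other fibroblasts, of the 7124 genes tested, in mouse 1 (horizontal axis) and mouse 2 (vertical axis); red genes were higher, blue lower and grey not called. Dact2, Krtdap and Sbsn are highest in both mice, Mmp3 and Inmt are far below 0 in both, and H2-Ab1 and Lyz2 are lower in mouse 1 alone.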

How the data were processed

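Whole mesenteric cells of 2 mice were profiled by droplet single-cell RNA sequencing. The authors deposited a table of raw UMI counts, whole and not normalized, with a gene and a barcode index per entry. The submitters' processing notes list Cell Ranger and mm10, with no version. The matrix held 27998 genes and 3204 barcodes, whose suffix of 1 or 2 was matched by number to the mouse. How barcodes were called as cells before deposit was not stated. Scrublet in scanpy 1.11.5 called 39 and 4 doublets per library, 1 and 0 among chosen and 4 and 1 among other fibroblasts. They were kept, and left out in an alternative.

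Counts were summed per mouse and population and fitted with edgeR 4.0.16 (R 4.3.3): TMM, filterByExpr, mouse as a block because the same animal gave both populations, and glmQLFTest. The fit covered 7131 genes, 7 of them used by the rule and left out of counts of calls. It had 1 residual degree of freedom, an infinite prior and a common biological coefficient of variation of 0.0892, so all genes share a single spread. The SE is the log2 fold change divided by the root of F. p-values set the difference between populations against the spread shared by all genes, and not against each gene's own spread between these 2 animals. The 12 rule genes are not tested, and levels are given for those of the sum and of the collagen filter. Intervals are exact at 95% and cover counting error only; a count of 0 allows up to 3 counts.

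Members and lists were chosen with earlier results of these data known. Of 429 list entries 420 matched a single row. Named genes were Krtdap, Sbsn, the 12 largest increases and the 12 largest decreases among called genes that moved alike in both mice at a mean log2 CPM of 5 or more, and from each list up to 6 members with the highest mean CPM plus all called members where at most 6 were called. A further 65 list members were named after their values were seen; not all that the rule named are printed, and some are not reported here. Leukocyte barcodes had a Ptprc UMI and at most 3 UMIs summed over the 4 collagen filter genes; mesothelial and endothelial barcodes had at least 5 UMIs of Msln and Upk3b or of Cdh5 and Cldn5. Alternatives were DESeq2 1.42.0 (size factors, Wald test), no filter, no replicate block, rules of at least 3 or 10 UMIs, sums of 1 to 4 left out, a scaled rule, 2000 to 8000 UMIs, no doublets, Pi16 alone, each mouse left out, and thinning to 500 or 2000 UMIs or none. Added after the data were seen were Igfbp5 with Dmkn alone, no barcodes with Dmkn, Krtdap or Sbsn, and a collagen sum of at least 30. Motif letters were searched in RefSeq promoters of GRCm38.p6.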

Additional observations from a re-analysis of the deposited data

How the results depend on the processing

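The 1311 calls (588 higher and 723 lower) became 284 (120 and 164) with DESeq2's Wald test and 853 (360 higher) with a rule of at least 10 UMIs. Dropping barcodes with Dmkn, Krtdap or Sbsn gave 110 (48 and 62), with fewer barcodes and genes. Without the replicate block, whose pairing comes from the animal that gave both populations, 922 genes were called (383 higher), all 922 among the 1311. The other 9 alternatives gave 1045 to 1362 calls; no filter on low counts gave 1176 (458 higher and 718 lower) of 14457 genes and put the median over all genes at a log2 fold change of −0.15. The share of 19.1% became 23.1% with at least 3 UMIs, 14.0% with at least 10, and 16.6 to 21.5% with either mouse left out. A mouse left out gives no test, since no degree of freedom remains.

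Of the 162 named genes called, 100 kept their call under DESeq2's Wald test, 137 without the block, 147 within 2000 to 8000 UMIs and 161 without doublets. Dropping barcodes with Dmkn, Krtdap or Sbsn turned 7: log2 fold changes were 0.69 for Bgn, 0.48 for Eln, 0.00593 for Fbln1, 0.55 for Igf1, 0.16 for Igfbp4, −0.34 for Plat and −0.28 for Stmn4, none of them called. H2-Ab1 turned to −1.96 within 2000 to 8000 UMIs, and Lyz2 to 0.21 without mouse 1, against −2.90 without mouse 2. H2-Ab1 was called higher without doublets, with Pi16 alone and with Igfbp5 and Dmkn alone. The cause was not tested. Thinning to 500 or 2000 UMIs, or none, moved shares of barcodes with a UMI by construction. The medians of the BMP and TGF-beta, surface receptor and transcription factor lists, all near 0, changed sign under some alternatives.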

Other observations

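Outside the fibroblast filter, 150 further barcodes (50 and 100) passed the gene and mitochondrial filters with at least 5 UMIs of Pi16, Igfbp5 and Dmkn. The largest set, 115 barcodes (37 and 78), exceeded 1 UMI of Msln and Upk3b, and of these 114 had an Igfbp5 UMI, 65 a Dmkn UMI, 9 a Pi16 UMI and 2 a Krtdap UMI. Their median depth was 6809 UMIs. A further 18 had a Ptprc UMI, with a median of 7436.5 UMIs, and 12 of them had Pi16 and 4 Krtdap. Another 14 fell below the collagen sum, and 3 exceeded 1 UMI of Cdh5 and Cldn5. Scrublet called 2 of the 150 as doublets. Dpp4, used elsewhere to mark progenitor fibroblasts, was higher in mesothelial barcodes, at 247 and 237 CPM, than in the chosen fibroblasts, at 81.3 and 104 CPM.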
